A study of Mus musculus with 12 samples.

Results

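The Ly6 genes Ly6a, Ly6c1, Ly6c2, Ly6d, Ly6e and Ly6i encode small surface proteins of mouse blood, vessel and epithelial cells, and were followed here in the livers of mice with and without bile duct ligation. The 6 genes were taken as a list by their names on the array, and Ly6d was chosen by its measured change, one of the largest rises after ligation in these same livers. Of the 6 genes, 5 had a probe of their own name, among 31870 genes on the array, and all 5 were well above background often enough to be tested with 19531 genes in all. Ly6c2 had none, and 1 of the 2 Ly6c1 probes lists transcripts of both Ly6c1 and Ly6c2. The livers came from 4 groups of 3 mice: FSAP-deficient (FSAP-/-) mice after bile duct ligation (BDL), FSAP-/- mice after a sham operation, FSAP+/+ (WT) mice after BDL, and WT mice after a sham operation. FSAP, factor VII activating protease, is a circulating serine protease made by hepatocytes and encoded by Habp2. All mice carried a BalbC background reached by backcrossing to generation F3, FSAP-/- and WT mice were littermates of heterozygous crosses, age was 20 to 30 weeks, and livers were frozen 2 weeks after surgery. Neither the deleted part of Habp2 nor the sex of the mice is in the labels.

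Ly6 proteins share a compact, cysteine-bonded domain with the urokinase receptor (uPAR) and are mostly held on the outer cell membrane by a glycosylphosphatidylinositol (GPI) lipid anchor. Several of their genes are induced by interferons, and antibodies to them are used to tell blood cell types apart. Ly6a (Sca-1) marks haematopoietic stem cells and is also found on activated lymphocytes and endothelium. Ly6c1 and Ly6c2 encode the Ly6C antigens, high on inflammatory monocytes and present on endothelium and some T cells. Ly6e is a broadly expressed interferon-induced member, Ly6d is found on keratinocytes and early B cell progenitors, and Ly6i is a close relative of the Ly6C genes. Ligation of the bile duct holds bile in the liver and is followed by growth of bile ducts, entry of leukocytes and scarring.

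The arrays measured the brightness of 60-base probes, and a level is given below as log2 of the signal relative to the 75th percentile of its own array, so that 0 is that percentile and 1 unit is a doubling. Levels of different probes are not comparable. Habp2 lay between -7.18 and -3.45 in the 6 FSAP-/- livers, where only replicate 1 of the FSAP-/- sham group was well above background, against 4.97 to 5.51 in the 6 WT livers. Alb, the albumin gene of hepatocytes, lay between 8.69 and 9.88 in all livers. The arrays came from 4 slides, and none held both genotypes after the same surgery, so no slide gives a genotype difference within 1 surgery group. Transcripts of the Y chromosome were well above background in replicates 1 and 2 of the FSAP-/- BDL group and replicate 1 of the FSAP-/- sham group, and in none of the 6 WT livers. Xist, an X-linked transcript of female cells, was at -7.14, -6.97 and -7.52 in those livers and between -1.53 and 0.08 in all others. These sex-linked transcripts were mixed within both FSAP-/- groups and uniform in WT livers. The genotype comparisons and the FSAP-/- ligation comparison therefore carry this difference too. In whole liver, fewer cells of a type and less RNA per cell cannot be told apart.

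Of the listed Ly6 genes, Ly6d was the one that stood far higher after ligation in both genotypes. Ly6c1 was the one that changed by the test, falling on its brightest probe to 1 part in 13.3 of its sham level in WT livers after ligation. The Ly6c1 probe shared with Ly6c2 had a WT change of -0.83 that did not pass the test. With slide as a fixed block the fall on the brightest probe did not pass either. Ly6a lay lower in every WT liver after ligation than in every WT sham liver and higher in every FSAP-/- BDL liver than in every WT BDL liver, and neither difference passed the test. Ly6e was bright and Ly6i dim in all groups, and neither changed by the test. Counted without Ly6d, whose rise was the reason for its choice, 0 of 4 genes changed after ligation in FSAP-/- livers by limma at an adjusted p under 0.05, where 39.0% of all tested genes were called, and 1 of 4 had an unadjusted p under 0.05, as did 47.9% of all genes. In WT livers 1 of 4 fell and 0 rose, where 32.8% of all genes were called, and 2 of 4 had an unadjusted p under 0.05, as did 43.4% of all genes. Ligated and sham livers did not overlap for 0 of 4 genes in FSAP-/- mice and for 3 of 4 in WT mice, against 47.5% and 52.1% of all genes. The median log2 change of the 4 genes was 0.73 in FSAP-/- livers and -1.09 in WT livers, beside -0.16 and -0.03 for all tested genes.

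**Figure D1:**
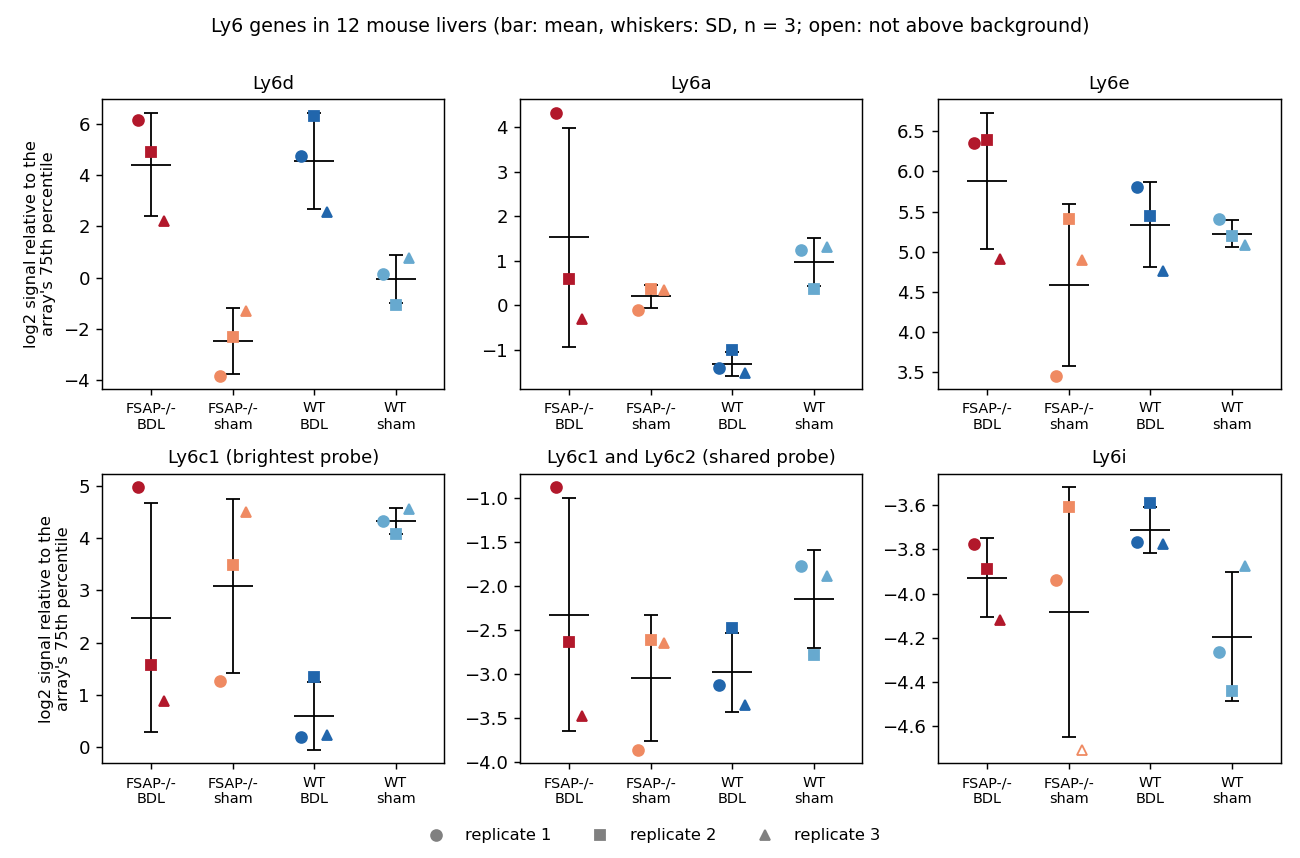
Level of each Ly6 probe in each liver (log2 signal relative to the array's 75th percentile, vertical axes differ by panel), with the mean and SD of the 3 mice of a group. Ly6d lies above the sham livers in all 6 ligated livers, the brightest Ly6c1 probe lies between 0.19 and 1.35 in the WT BDL livers, and replicate 1 of the FSAP-/- BDL group is the highest of 12 livers for Ly6a and Ly6c1.

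Ly6d, the keratinocyte and B progenitor member, had levels of 6.14, 4.87 and 2.19 in replicates 1 to 3 of the FSAP-/- BDL livers, against -3.82, -2.32 and -1.29 in the FSAP-/- sham livers. The lowest ligated liver lay above the highest sham liver. In WT livers the levels were 4.75, 6.31 and 2.56 after BDL, against 0.15, -1.07 and 0.75 after the sham operation, again with no overlap. The log2 difference was 6.88 with a standard error of 1.13 in FSAP-/- livers and 4.60 with a standard error of 1.13 in WT livers. These differences chose the gene and were not tested. Among rises of all 19531 genes that of Ly6d was number 7 in FSAP-/- livers, between Cxcl5 at 6.93 and Gpnmb at 6.73, and number 67 in WT livers, between Obp2a at 4.61 and Myo7b at 4.59. Within the 1 slide that held FSAP-/- livers of both surgeries the difference was 5.69, and within the slide that held WT livers of both it was 4.81. Without the 3 livers that had Y-linked transcripts, the FSAP-/- difference was 3.99.

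Ly6d averaged 4.40 ± 2.02 in FSAP-/- BDL livers and -2.48 ± 1.28 in FSAP-/- sham livers, and 4.54 ± 1.88 in WT BDL livers and -0.05 ± 0.93 in WT sham livers (SD, n = 3 each). From high to low the order was WT BDL, FSAP-/- BDL, WT sham and FSAP-/- sham, and of the neighbours only the 2 ligated groups overlapped. The sham levels are part of the rise that chose Ly6d, so the genotype difference of the sham livers is given as values only. All 3 FSAP-/- sham livers lay below all 3 WT sham livers, as did 7.23% of all genes, with a log2 difference of -2.42 and a standard error of 1.13. It was -1.75 without replicate 1 of the FSAP-/- sham group, which stood on a slide of its own.

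Ly6a, the stem cell antigen Sca-1, had levels of 4.33, 0.58 and -0.31 in the FSAP-/- BDL livers, against -0.10, 0.36 and 0.34 in the FSAP-/- sham livers. Replicate 1 after ligation stood far above the other livers of its group, and the groups overlapped. The log2 change was 1.34 with a standard error of 0.91 (adjusted p = 0.273), and without replicate 1 of the FSAP-/- BDL group it was -0.06. In WT livers Ly6a had levels of -1.42, -1.01 and -1.52 after BDL, against 1.24, 0.36 and 1.32 after the sham operation. The groups did not overlap, and the log2 change of -2.29 had a standard error of 0.91 and an adjusted p of 0.0761. The spread of replicate 1 of the FSAP-/- BDL group enters that error through the shared estimate. Without that array the same change had an adjusted p of 0.000575 by limma, and with the 2 WT groups alone 0.00203. With other arrays left out the adjusted p was as high as 0.175, and over the other settings as high as 0.324. Whether this change passes thus depends on the arrays and settings used.

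Between the ligated groups, Ly6a averaged 1.53 ± 2.46 in FSAP-/- livers and -1.32 ± 0.27 in WT livers (SD, n = 3 each). Every FSAP-/- BDL liver lay above every WT BDL liver, as did 6.65% of all genes. The log2 difference was 2.85 with a standard error of 0.91 and did not pass the test (adjusted p = 0.220). It was 1.45 without replicate 1 of the FSAP-/- BDL group and 1.00 without the 3 livers with Y-linked transcripts. The ligation change of Ly6a differed between genotypes by 3.62 log2 units with a standard error of 1.28 (adjusted p = 0.261). The sham groups averaged 0.20 ± 0.26 in FSAP-/- livers and 0.97 ± 0.53 in WT livers (SD, n = 3 each). From high to low the order was FSAP-/- BDL, WT sham, FSAP-/- sham and WT BDL, and of the neighbours only FSAP-/- sham and WT BDL did not overlap.

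Ly6c1 and Ly6c2 lie near each other on chromosome 15, and the probe whose listed transcripts include both is shown because it is the only one here that bears on Ly6c2. It lies at chr15:74877785-74877844 on the minus strand of mm9. The brightest Ly6c1 probe lies at chr15:74875495-74875554 on the same strand and lists Ly6c1 transcripts only.
Ly6c1 and Ly6c2 shared probe: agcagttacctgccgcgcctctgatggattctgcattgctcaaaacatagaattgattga

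On its brightest probe, Ly6c1 had levels of 0.19, 1.35 and 0.24 in the WT BDL livers, against 4.33, 4.08 and 4.57 in the WT sham livers. Every ligated liver lay below every sham liver. Ly6c1 fell by 3.73 on the log2 scale with a standard error of 1.01 (adjusted p = 0.0160 by limma). Within the slide that held WT livers of both surgeries the change was -4.13, with 1 ligated liver. A fixed slide block draws this comparison from that slide alone, so its change of -4.13 is the same estimate and not a second check. Under that block the change had an adjusted p of 0.0755 by limma.

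In FSAP-/- livers Ly6c1 had levels of 4.98, 1.57 and 0.88 after BDL, against 1.26, 3.48 and 4.51 after the sham operation. Replicate 1 was the highest of the ligated livers and replicate 1 of the sham group the lowest of the sham livers, and the groups overlapped. The log2 change was -0.61 with a standard error of 1.01 (adjusted p = 0.665) and a 95% interval of -2.84 to 1.61. Without the 3 livers with Y-linked transcripts, which include both of those replicates, Ly6c1 fell by 3.12 (adjusted p = 0.00603), with 1 ligated FSAP-/- liver left, which the fit takes to vary like the other groups. The part of those transcripts in the result was not tested beyond that.

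Ly6c1 averaged 2.47 ± 2.19 in FSAP-/- BDL livers and 3.09 ± 1.66 in FSAP-/- sham livers, and 0.59 ± 0.66 in WT BDL livers and 4.32 ± 0.24 in WT sham livers (SD, n = 3 each). From high to low the order was WT sham, FSAP-/- sham, FSAP-/- BDL and WT BDL, and each neighbouring pair overlapped. The difference between FSAP-/- BDL and WT BDL livers was 1.88 (standard error 1.01, adjusted p = 0.467) and that between FSAP-/- sham and WT sham livers -1.24 (standard error 1.01, adjusted p = 0.849). The ligation change differed between genotypes by 3.12 with a standard error of 1.42 (adjusted p = 0.370), so that a change seen by the test in WT livers was not shown to differ from that in FSAP-/- livers.

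The probe shared with Ly6c2 was dim and gave levels of -3.12, -2.48 and -3.35 in the WT BDL livers, against -1.77, -2.79 and -1.89 in the WT sham livers. The groups overlapped on this probe, and its change of -0.83 (standard error 0.60) did not pass the test (adjusted p = 0.316). In FSAP-/- livers it gave -0.88, -2.63 and -3.47 after BDL, against -3.87, -2.62 and -2.65 after the sham operation. Its change there was 0.72 (standard error 0.60, adjusted p = 0.376). The 2 Ly6c1 probes therefore disagreed in the size of the WT change, while their levels had a Pearson r of 0.76 over the 12 livers and their deviations from the group means one of 0.93. The fall of Ly6c1 rests on the probe that does not list Ly6c2, and no level of Ly6c2 alone was measured.

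The reference table holds promoter windows for 2 of the 6 genes, Ly6c1 and Ly6c2, and the 250 bases before each start are shown because these neighbours share a probe and most of their upstream sequence. They lie at chr15:75048838-75049087 for Ly6c1 and chr15:75111972-75112221 for Ly6c2, both on the minus strand of GRCm38.p6, and come from RefSeq. Capitals mark the longest run that both share, 20 bases.
Ly6c1 promoter: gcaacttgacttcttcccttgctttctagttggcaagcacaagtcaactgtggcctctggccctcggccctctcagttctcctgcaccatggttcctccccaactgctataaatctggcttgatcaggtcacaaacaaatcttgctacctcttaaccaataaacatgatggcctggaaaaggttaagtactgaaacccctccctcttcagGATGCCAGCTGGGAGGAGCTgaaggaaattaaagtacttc
Ly6c2 promoter: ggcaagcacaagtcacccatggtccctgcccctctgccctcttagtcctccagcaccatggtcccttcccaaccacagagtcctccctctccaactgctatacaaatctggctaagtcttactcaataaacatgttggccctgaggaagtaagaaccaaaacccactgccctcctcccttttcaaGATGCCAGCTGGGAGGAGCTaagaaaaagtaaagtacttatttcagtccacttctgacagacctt
Of 216 bases that could be aligned, 164 were identical, 75.9%. The interferon-stimulated element, GAAA then any 2 bases then GAAA, which 3.0% of all 32851 windows hold on either strand, was in 0 of the 2 windows that the table holds for each gene. That says only that these letters are not in these windows.

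Ly6e, the broadly expressed member, had levels of 6.36, 6.39 and 4.91 in the FSAP-/- BDL livers, against 3.45, 5.40 and 4.90 in the FSAP-/- sham livers. The groups overlapped through replicate 3 after ligation, and replicate 1 of the sham group was the lowest of all 12 livers. The log2 change was 1.30 with a standard error of 0.52 and did not pass the test (adjusted p = 0.0680). It passed with quantile normalization, where it was 1.73 (adjusted p = 0.0205), and it was -0.24 without the 3 livers with Y-linked transcripts. In WT livers Ly6e had levels of 5.80, 5.44 and 4.76 after BDL, against 5.41, 5.19 and 5.08 after the sham operation, with a log2 change of 0.11, a standard error of 0.52 and a 95% interval of -1.03 to 1.25. It averaged 5.89 ± 0.85 in FSAP-/- BDL livers and 4.58 ± 1.01 in FSAP-/- sham livers, and 5.33 ± 0.53 in WT BDL livers and 5.23 ± 0.17 in WT sham livers (SD, n = 3 each). The order of means was FSAP-/- BDL, WT BDL, WT sham and FSAP-/- sham, and each neighbouring pair overlapped.

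Ly6i was measured near background by 1 probe at chr15:74810484-74810543 on the minus strand of mm9, printed because every Ly6i value rests on it.
Ly6i probe: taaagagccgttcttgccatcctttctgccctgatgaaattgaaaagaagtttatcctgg
Its levels were -3.77, -3.89 and -4.12 in the FSAP-/- BDL livers, against -3.94, -3.61 and -4.71 in the FSAP-/- sham livers, where replicate 3 was not well above background. In WT livers they were -3.77, -3.59 and -3.77 after BDL, against -4.27, -4.44 and -3.87 after the sham operation. The WT groups did not overlap, with the ligated livers higher, as for 24.1% of all genes, and the log2 change of 0.48 (standard error 0.26) did not pass the test (adjusted p = 0.178). The change in FSAP-/- livers was 0.16 (standard error 0.26, adjusted p = 0.665). Ly6i averaged -3.93 ± 0.18 in FSAP-/- BDL livers and -4.08 ± 0.57 in FSAP-/- sham livers, and -3.71 ± 0.10 in WT BDL livers and -4.19 ± 0.29 in WT sham livers (SD, n = 3 each). The order of means was WT BDL, FSAP-/- BDL, FSAP-/- sham and WT sham, and each neighbouring pair overlapped.

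**Figure D2:**
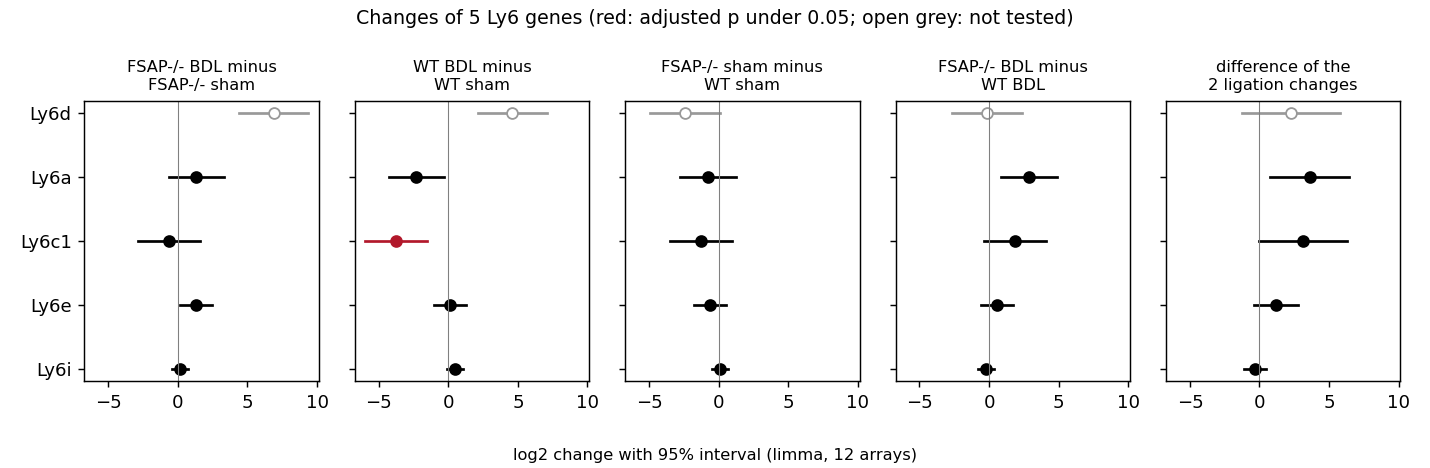
Log2 change of each Ly6 gene in each comparison, with the 95% interval of the limma fit to all 12 arrays (horizontal axis, log2 units; 1 panel per comparison). The fall of Ly6c1 in WT BDL against WT sham livers is the 1 change past an adjusted p of 0.05, and Ly6d, chosen for its rise, is drawn open with values and no test.

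The genotype comparisons asked whether loss of FSAP moved the Ly6 genes before or after ligation. No other Ly6 gene passed the test in FSAP-/- sham against WT sham livers, 0 of 4 by limma and 0 of 4 at an unadjusted p under 0.05, counted without Ly6d, where 0.0154% of all genes were called and 7.88% had such a p. In FSAP-/- BDL against WT BDL livers 0 of 4 passed and 1 of 4, Ly6a, had an unadjusted p under 0.05, where 0.215% of all genes were called and 12.9% had such a p. For the difference of the ligation changes 0 of 4 passed and Ly6a again had an unadjusted p under 0.05, where 0.0102% of all genes were called and 13.7% had such a p. Few genes of any kind passed in these comparisons. The comparisons of ligated and of unligated livers share their groups with the ligation comparisons, so the values above are not separate evidence.

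Interferon-induced genes were examined because Ly6a, Ly6c1 and Ly6e are known to respond to interferons. In WT livers 16 of 38 fell after ligation and 0 rose, with a median log2 change of -0.84, where 32.8% of all genes were called. The largest falls were those of Cxcl9, a chemokine for activated T cells, by 3.15 (standard error 0.82, adjusted p = 0.0132), Ifit3, an antiviral RNA-binding protein, by 2.45 (standard error 0.54, adjusted p = 0.00593), and Gbp3, a guanylate-binding protein, by 2.27 (standard error 0.61, adjusted p = 0.0150). With other scalings, a slide block or left-out arrays, between 6 and 27 of the 38 fell and 0 rose, among them 10 without replicate 2 or without replicate 3 of the WT sham group. In FSAP-/- livers 9 of 38 rose and 1 fell, with a median of 0.46, a smaller share than the 39.0% of all genes called. Those that rose were led by Cxcl10, a T cell chemokine, at 2.20 (standard error 0.63, adjusted p = 0.0191), Gbp2 at 2.15 (standard error 0.65, adjusted p = 0.0237) and Ifit2 at 1.63 (standard error 0.29, adjusted p = 0.00137). Without replicate 1 of the FSAP-/- BDL group 5 rose and 3 fell, without replicate 1 of the FSAP-/- sham group 4 rose and 0 fell, with slide as a fixed block 4 rose and 0 fell, within the 1 slide that held both groups 1 rose, and without the 3 livers with Y-linked transcripts 4 rose and 8 fell. For the difference between the genotypes' ligation changes 0 of the 38 passed by limma, where 0.0102% of all genes were called. An unadjusted p under 0.05 was held by 24 of the 38, as by 13.7% of all genes, all 24 with the FSAP-/- change higher.

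The mean level of the 38 interferon-induced genes was 1.51, 0.06 and 0.23 in the FSAP-/- BDL livers, against -0.52, 0.35 and 0.15 in the FSAP-/- sham livers. It was -0.62, -0.55 and -0.45 in the WT BDL livers, against 0.37, 0.53 and 0.44 in the WT sham livers. The liver with the highest mean, replicate 1 of the FSAP-/- BDL group, was the one with the highest Ly6a and Ly6c1, and the FSAP-/- sham liver with the lowest mean, replicate 1, had the lowest Ly6c1 of its group. Ifng, the gene of interferon gamma, was well above background in that 1 FSAP-/- BDL liver alone, at -3.07, and lay between -7.67 and -5.37 in the other 11.

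T and NK cell markers moved with these values. Of 15 tested, 8 fell and 1 rose after ligation in WT livers, where 32.8% of all genes were called. In FSAP-/- livers 6 rose and 2 fell, where 39.0% of all genes were called. With slide as a fixed block 1 fell and 1 rose in WT livers, and 1 rose and 0 fell in FSAP-/- livers. In WT livers 4 fell when WT BDL replicate 2 was left out, and 5 when WT BDL replicate 3 or WT sham replicate 1 was. With quantile normalization or normexp correction 3 rose in FSAP-/- livers, as did 3 without replicate 1 of the FSAP-/- sham group, and 0 rose within the 1 slide that held both FSAP-/- groups. Without replicate 1 of the FSAP-/- BDL group 3 rose and 1 fell in FSAP-/- livers, and without the 3 livers with Y-linked transcripts 2 rose and 1 fell. Where no array of a group was well above background its level is only a bound, and the difference is given as at least the fold between the other group's mean and a floor, which on each array is the dimmest signal that counts as well above background, or the probe's value where that is higher. In WT livers Cd3g, a T cell receptor subunit, was at least 3.46-fold lower after ligation (adjusted p = 0.00424). Il2rb, a subunit of the receptor for interleukins 2 and 15, was at least 3.46-fold lower too (adjusted p = 0.00327). Both genes were not well above background in any WT BDL liver. The mean level of the 15 markers lay between -1.57 and -0.28 in FSAP-/- BDL livers, against -2.39 to -1.50 in FSAP-/- sham livers, and between -2.55 and -2.20 in WT BDL livers, against -1.33 to -1.10 in WT sham livers. Replicate 1 of the FSAP-/- BDL group was again the highest. Whether these cells took part in the levels of Ly6a and Ly6c1 was not tested.

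**Figure D3:**
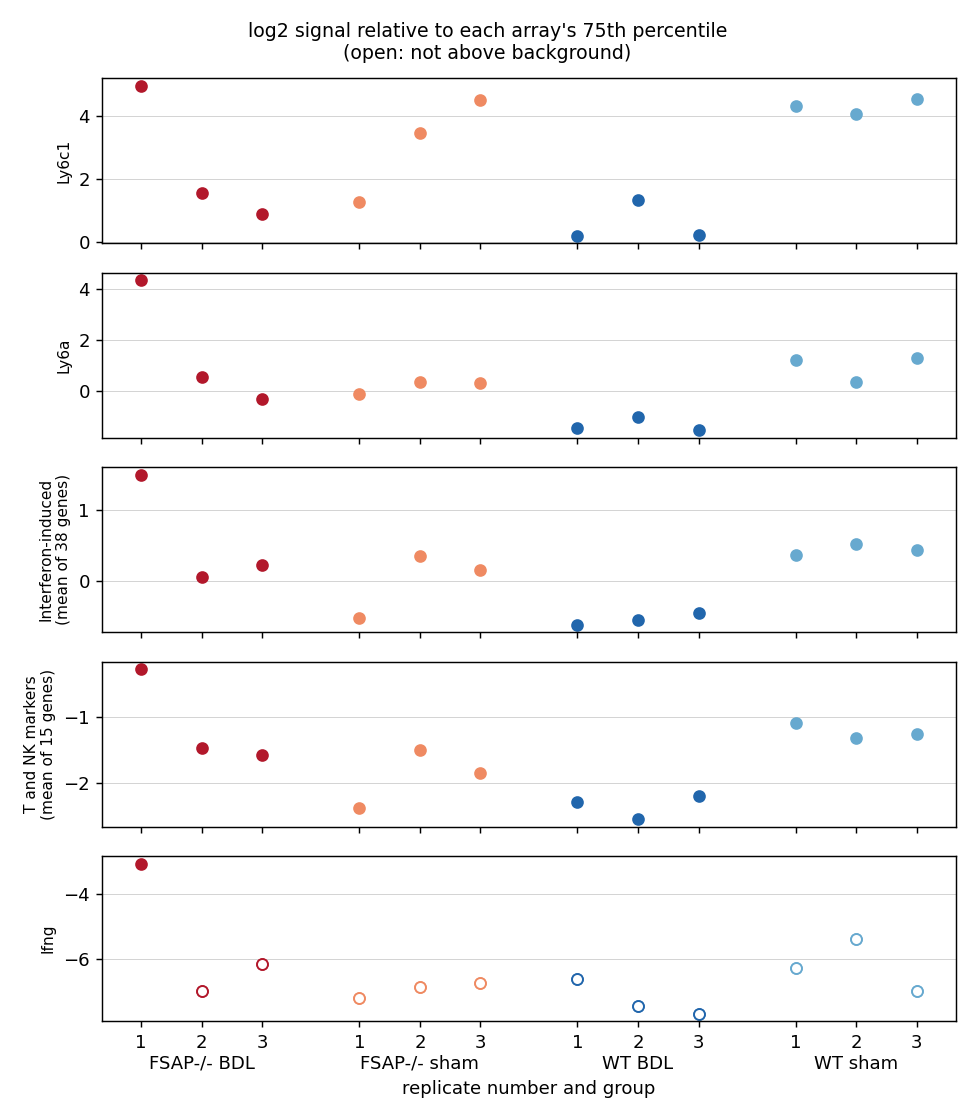
Levels in each of the 12 livers (log2 signal relative to the array's 75th percentile) of Ly6c1, Ly6a, the mean of 38 interferon-induced genes, the mean of 15 T and NK cell markers, and Ifng. Replicate 1 of the FSAP-/- BDL group is the highest liver in every panel, and the WT BDL livers lie below the WT sham livers for both Ly6 genes and both means.

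Markers listed for inflammatory monocytes, the cells known for high Ly6C, were mostly higher after ligation. The list also holds Cx3cr1, Nr4a1 and Treml4, which are not particular to those cells. Both Ly6c1 and Ly6c2 encode Ly6C, and no level of Ly6c2 alone was measured, so Ly6c1 does not stand for the Ly6C of monocytes here. Of 17 tested markers on this list, 14 rose and 2 fell after ligation in FSAP-/- livers, where 39.0% of all genes were called. Among the same 17, 13 rose and 0 fell in WT livers, where 32.8% of all genes were called. Within the 1 slide that held both FSAP-/- groups 7 rose. Ccr2, the chemokine receptor that brings monocytes out of the marrow, was at -0.76, -1.27 and -0.52 in FSAP-/- BDL livers, against -5.15, -4.44 and -4.25 in FSAP-/- sham livers. In WT livers it was at -2.02, -1.66 and -1.87 after BDL, against -4.21, -3.82 and -4.10 after the sham operation. The mean of the monocyte markers lay between 0.24 and 0.69 in WT BDL livers, against -1.66 to -1.30 in WT sham livers, while Ly6c1 lay lower in each WT BDL liver than in each WT sham liver. Neutrophil markers rose in 12 of 17 in FSAP-/- livers and in 10 of 17 in WT livers with none falling, and Kupffer cell markers in 10 and 8 of 13 with none falling. A fixed slide block left 5 neutrophil markers that rose in FSAP-/- livers and 3 in WT livers. Ligated livers alone made the neutrophil markers Cxcr2, Il1r2 and Mmp9 bright enough to be tested, which leans the neutrophil counts toward rises.

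Of 18 markers of endothelium, another known place of Ly6a and Ly6c1, 6 rose and 1 fell in FSAP-/- livers, where 39.0% of all genes were called, and 4 rose and 1 fell in WT livers, where 32.8% were. With slide as a fixed block 3 rose and 0 fell in FSAP-/- livers, and 1 rose and 4 fell in WT livers, and with median scaling 5 rose and 3 fell in FSAP-/- livers. Cd34, a sialomucin of capillary endothelium, rose by 2.47 (standard error 0.34, adjusted p = 0.000310) in FSAP-/- livers and by 1.59 (standard error 0.34, adjusted p = 0.00470) in WT livers. Stab2, another of the 18, did not rise in FSAP-/- livers, at 2.47, 2.58 and 2.43 after BDL, against 2.50, 3.23 and 2.96 after the sham operation. It was at 3.10, 3.46 and 3.08 in WT BDL livers, against 3.01, 3.09 and 3.31 in WT sham livers. The median log2 change of the 18 was 0.32 in FSAP-/- and 0.03 in WT livers. The mean of the 18 markers lay between -0.19 and 0.44 in WT BDL livers, against -0.16 to -0.09 in WT sham livers. Of 12 tested markers of B cells, plasma cells and plasmacytoid dendritic cells, 0 rose and 3 fell in FSAP-/- livers, and 1 rose and 6 fell in WT livers. Without replicate 1 of the FSAP-/- BDL group 1 of them fell in FSAP-/- livers, with median scaling 6 did, and with slide as a fixed block 2 fell in WT livers. Ms4a1, the B cell antigen CD20, was not well above background in any ligated liver and was at least 2.63-fold lower in WT BDL than WT sham livers. Sham livers alone made Ms4a1 bright enough to be tested, so no p-value is given. The mean of the 12 markers lay between -0.63 and -0.39 in FSAP-/- BDL livers, against -0.36 to 0.32 in FSAP-/- sham livers, and between -0.61 and -0.47 in WT BDL livers, against 0.11 to 0.35 in WT sham livers.

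Markers of epithelium, a known place of Ly6d, were counted beside it. Of 21 tested cholangiocyte markers 14 rose and 2 fell after ligation in each genotype, and of 9 tested markers of stratified epithelium 4 rose and 0 fell in each. Some cholangiocyte markers, among them Epcam, Ehf, Elf3 and Muc1, were not well above background in any sham liver. Ligated livers alone made these bright enough to be tested, which leans the count toward rises. Among all tested genes 39.0% were called in either direction in FSAP-/- livers and 32.8% in WT livers. Of those calls 41.5% and 46.1% were higher. Another 7 of the 16 listed stratified epithelium markers were not tested. In WT livers 2 of these 9 rose with median scaling, quantile normalization, normexp correction, the authors' log2 values or slide as a fixed block. Without the 3 livers with Y-linked transcripts 2 of the stratified epithelium markers rose and 1 fell in FSAP-/- livers. The mean of the stratified epithelium markers lay between -1.06 and -0.39 in FSAP-/- BDL livers, against -2.57 to -1.79 in FSAP-/- sham livers, and between -1.12 and -0.76 in WT BDL livers, against -2.19 to -1.86 in WT sham livers. Krt17, a keratin of stressed and basal epithelium, was not well above background in any sham liver. It was at least 7.51-fold higher in FSAP-/- BDL than FSAP-/- sham livers and at least 5.34-fold higher in WT BDL than WT sham livers. Ligated livers alone made Krt17 bright enough to be tested, so no p-values are given. Krt19, the keratin of bile ducts, was at 0.30, 1.56 and 0.52 in FSAP-/- BDL livers, against -2.54, -2.69 and -2.95 in FSAP-/- sham livers. In WT livers it was at 0.20, -0.35 and 1.40 after BDL, against -2.96, -2.45 and -3.25 after the sham operation. Krt23, on the stratified epithelium list, was at 1.37, 0.43 and 1.61 in FSAP-/- BDL livers, against -1.44, 0.24 and -1.85 in FSAP-/- sham livers. It went the other way in WT livers, at -0.66, -1.10 and 0.83 after BDL, against 1.00, 0.88 and 1.44 after the sham operation. The WT groups did not overlap for Krt23, but its WT change did not pass the test. Within the ligated groups the order of the livers differed: Ly6d was highest in replicate 1 of the FSAP-/- group and in replicate 2 of the WT group, Krt19 in replicate 2 and in replicate 3. The part of epithelial cells in the level of Ly6d was not tested. Stellate and myofibroblast markers rose in 11 of 14 in FSAP-/- livers and in 6 of 14 in WT livers, and hepatocyte markers fell in 8 and in 2 of 13. None of these markers moved the other way, but with quantile normalization or the authors' log2 values 4 hepatocyte markers rose and 2 fell in WT livers, and 3 fell in FSAP-/- livers. With median scaling 4 hepatocyte markers fell in WT livers. With slide as a fixed block 2 hepatocyte markers fell in FSAP-/- livers, and 2 stellate and myofibroblast markers rose and 1 fell in WT livers.

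The listed Ly6 genes lie in a run of relatives on chromosome 15, between 74535467 and 75428543 on mm9, where the array has 42 probes. Beside the 6 member probes, 18 of the other 36 were well above background on at least 3 arrays. Of these 18 probes, 7 were higher and 3 lower after ligation in FSAP-/- livers, and 6 were higher and 5 lower in WT livers. Among all tested genes 39.0% and 32.8% were called in those comparisons. Between genotypes 0 of 18 passed by limma in either surgery group, and 1 of 18 had an unadjusted p under 0.05 in each. Such a p was held by 7.88% of all tested genes in sham livers and 12.9% in ligated livers. Lynx1, a modulator of nicotinic receptors, rose by 1.31 (standard error 0.23) in FSAP-/- and by 1.45 (standard error 0.23) in WT livers. Ly6h rose by 0.84 and 1.01 (standard error 0.21 for each), and Jrk by 1.25 and 1.02 (standard error 0.33 for each). Ly6k rose by 2.18 (standard error 0.37) in FSAP-/- livers and had a change of 0.94 (standard error 0.37, adjusted p = 0.0774) in WT livers.

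Gml, encoding a GPI-anchored molecule, was not well above background in any sham liver. On its brightest probe it was at least 4.11-fold higher in FSAP-/- BDL than FSAP-/- sham livers, and at least 1.89-fold higher in WT BDL than WT sham livers. On another probe of the same Gml transcript it was at least 2.88-fold higher in FSAP-/- BDL and at least 2.05-fold higher in WT BDL livers than in their sham livers. Ligated livers alone made both probes bright enough to be tested, so no p-values are given. Lypd2 rose by 0.73 (standard error 0.18) and Gpihbp1, the carrier of lipoprotein lipase on capillaries, by 0.63 (standard error 0.20) in WT livers, while in FSAP-/- livers their changes were -0.04 (standard error 0.18) and 0.31 (standard error 0.20). Them6 rose by 1.28 (standard error 0.40) in FSAP-/- livers and had a change of 0.79 (standard error 0.40) in WT livers. Slurp2 and Gml2 did not change by the test in either genotype. Slurp1, Psca, Ly6m and Ly6f were well above background on at most 1 array.

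Other probes in the same stretch as Ly6c1 fell after ligation. A bright probe named Gm3124 had a level of 5.85 in FSAP-/- BDL livers, against 7.62 in FSAP-/- sham livers, and of 6.18 in WT BDL livers, against 7.96 in WT sham livers (group means). It fell by 1.77 and 1.78 in FSAP-/- and WT livers (standard error 0.20 for each). The probe of a transcript of cDNA BC025446 fell by 1.45 in FSAP-/- livers and fell by 1.74 in WT livers (standard error 0.26 for each). The probe named 9030619P08Rik fell by 4.71 in WT livers (standard error 1.09, adjusted p = 0.00735) and had a change of -1.74 in FSAP-/- livers (standard error 1.09, adjusted p = 0.235).

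The file describes 1 probe as lymphocyte antigen 6 complex, locus G, the gene of the neutrophil antigen Ly6G, and it too fell after ligation, by 1.44 in FSAP-/- livers and by 1.72 in WT livers (standard error 0.32 for each, adjusted p = 0.00537 and 0.00238), while neutrophil markers rose. Its sequence shares a run of 28 bases with the probe of an unnamed transcript, ENSMUST00000089689, and both are shown because that overlap bears on what they measure. Capitals mark the shared run. The locus G probe lies at chr15:74989023-74989082 on the plus strand and the other at chr15:75066100-75066159 on the minus strand of mm9.
Locus G probe: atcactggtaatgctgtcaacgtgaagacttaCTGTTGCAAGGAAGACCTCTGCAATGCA
ENSMUST00000089689 probe: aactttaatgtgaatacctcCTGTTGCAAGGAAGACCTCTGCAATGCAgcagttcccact
The unnamed transcript fell by 2.61 in WT livers (standard error 0.69, adjusted p = 0.0149) and had a change of -0.82 in FSAP-/- livers (standard error 0.69, adjusted p = 0.386). How far each probe takes up RNA of the other transcript was not tested. No other probe of 39428 shared a run of 20 bases with any probe of the listed genes.

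**Figure D4:**
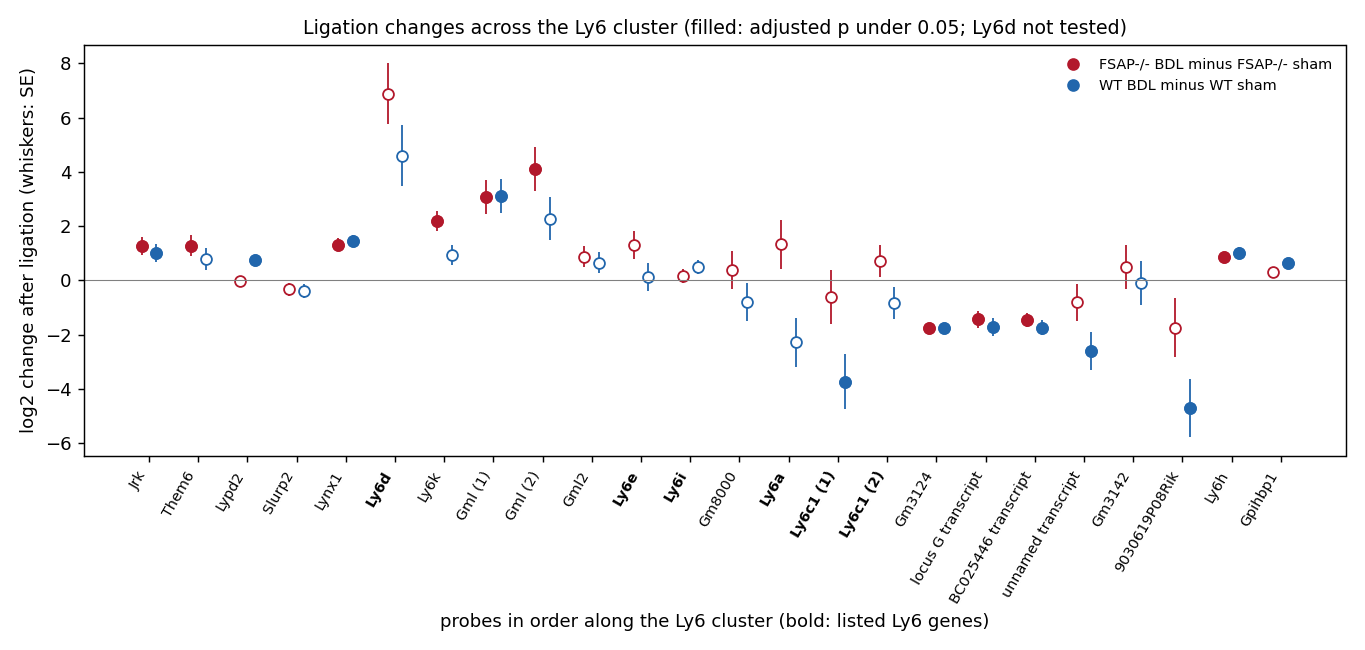
Log2 change after ligation (vertical axis, whiskers show the standard error) for the 24 probes of the Ly6 stretch that were well above background on at least 3 arrays, in their order along the chromosome, for FSAP-/- and WT livers. Probes from Jrk to Gml lie at or above 0 apart from Slurp2 and Lypd2, while those from Gm3124 to the unnamed transcript lie below 0 in both genotypes.

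Among 38 other genes with a Ly6 or uPAR domain, 35 were on the array and 19 were tested. After ligation 7 of the 19 rose and 2 fell in FSAP-/- livers, and 7 rose and 3 fell in WT livers, with median log2 changes of 0.16 and 0.63. Among all tested genes 39.0% were called in FSAP-/- livers and 32.8% in WT livers. Under median scaling 7 rose and 6 fell in FSAP-/- livers, and the median was -0.04, and without the 3 livers with Y-linked transcripts 3 rose and 1 fell there. With normexp correction 3 rose and 3 fell in FSAP-/- livers and 4 rose and 2 fell in WT livers, and with slide as a fixed block 3 rose and 2 fell in WT livers. In FSAP-/- livers 5 fell with quantile normalization, the authors' log2 values or WT BDL replicate 1 left out, and 4 with WT BDL replicate 2 left out. In WT livers 1 fell when WT sham replicate 1 was left out. Between genotypes and for the difference of the ligation changes 0 of 19 passed by limma, with 3 of 19 at an unadjusted p under 0.05 in sham livers, 2 in ligated livers and 5 for the difference. Such a p was held by 7.88%, 12.9% and 13.7% of all tested genes in those comparisons. Plaur, the urokinase receptor itself, rose by 4.32 (standard error 0.44, adjusted p = 5.66e-05) in FSAP-/- livers and by 4.04 (standard error 0.44, adjusted p = 9.11e-05) in WT livers. Ly6g6e was not well above background in any sham liver and was at least 1.55-fold higher in FSAP-/- BDL and at least 1.46-fold higher in WT BDL livers than in their sham livers. Ly6g6d, likewise dim in all sham livers, was at least 1.14-fold higher in FSAP-/- BDL than FSAP-/- sham livers. Ligated livers alone made both genes bright enough to be tested, so no p-values are given. Cd59b, a brake on the complement attack complex, fell by 2.00 (standard error 0.46, adjusted p = 0.00695) in WT livers and had a change of -1.19 (standard error 0.46, adjusted p = 0.0599) in FSAP-/- livers.

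Of 26 genes that build the GPI anchor 8 fell and 0 rose in each genotype. Among all genes 39.0% and 32.8% were called in either direction in FSAP-/- and WT livers, and 41.5% and 46.1% of those calls were higher. Under a fixed slide block 3 fell in each genotype, and with quantile normalization or the authors' log2 values 5 fell in FSAP-/- livers. Pigc, a subunit of the first enzyme of the pathway, fell by 1.52 in FSAP-/- and by 1.27 in WT livers (standard error 0.29 for each, adjusted p = 0.00217 and 0.00689), and Dpm1, which supplies its mannose donor, by 1.25 and 1.15 (standard error 0.16 for each). Of 12 tested interferon, receptor and signalling genes 7 rose and 0 fell in FSAP-/- livers and 6 rose and 0 fell in WT livers, and 4 rose in each with slide as a fixed block. Socs3, a feedback inhibitor of cytokine signalling, rose by 1.41 (standard error 0.42, adjusted p = 0.0233) in FSAP-/- livers and by 2.19 (standard error 0.42, adjusted p = 0.00284) in WT livers. Ifnlr1, a chain of the interferon lambda receptor, rose by 3.53 (standard error 0.40) in FSAP-/- livers and was at least 7.36-fold higher in WT BDL than WT sham livers. It was well above background in 1 FSAP-/- sham liver and 0 WT sham livers. Ligated livers made Ifnlr1 bright enough to be tested, so no p-values are given. Without the 3 livers with Y-linked transcripts, 5 GPI anchor genes fell and 1 rose, and 4 of the interferon and receptor genes rose, in FSAP-/- livers.

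The genes most like each Ly6 gene over the 12 livers were named by Pearson r, as a description, since all points share the same arrays and scaling. Ly6c1 was most like its neighbour 9030619P08Rik (r = 0.98), then Isg15 (0.97), a ubiquitin-like protein induced by interferon, and Ifit1 (0.94). Over deviations from the group means it was most like 9030619P08Rik (0.995), Herc6 (0.99) and Uba7 (0.98), the ligase and the activating enzyme for Isg15. Isg15 fell by 1.35 in WT livers (standard error 0.37, adjusted p = 0.0164). Ly6a was most like Rhof (0.94), Psmb9 (0.94), an immunoproteasome subunit, and Igtp (0.92), an interferon-induced GTPase, and over deviations like Gm2651, Mup4 and Rbm24 (0.97, 0.96 and 0.96). Ly6d was most like Mlkl (0.97), 2010003K11Rik (0.96) and Il18bp (0.96), and over deviations like Helz2 (0.98), S100a10 (0.96) and Itfg1 (0.94).

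Ly6e was most like Fmnl1 (0.94), Dnmt1 (0.93) and Gm4973 (0.92), and over deviations like Aldh9a1, Lacc1 and Snx9 (0.98, 0.97 and 0.96). The genes named as like Ly6i were Jmjd4 (0.82) and Rrs1 (0.81), and over deviations Tcp11l1, Oas3 and Crygf (0.94, 0.91 and 0.90). Among the Ly6 genes themselves, Ly6a and Ly6c1 had an r of 0.78 over levels and 0.84 over deviations. Ly6d and Ly6c1 had -0.28 over levels and 0.78 over deviations. Ly6d and Ly6e had 0.72 and 0.73, and Ly6i had at most 0.45 with any other Ly6 gene over levels. All r are over 12 livers of 4 groups.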

How the data were processed

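Total RNA of 12 mouse livers, 3 mice in each of 4 groups, was labelled with Cy3 and hybridised to 1-colour Agilent arrays, per the labels. The deposited scanner files hold spot intensity from Feature Extraction 10.5.1.1 (protocol GE1_105_Jan09), background-subtracted, per the file headers. The authors' deposited value table holds log2 values of the same arrays, which correlated at 0.9989 to 0.9999 with the scanner values, and served as an alternative. Here log2 of the processed signal minus the 75th percentile of each array was used, control and outlier spots were left out, repeat spots were averaged, and each gene was read from its brightest probe. Between 98 and 193 spots per array were outliers, none was saturated, 54.5 to 62.3% were well above background, and the 75th percentile of the signal lay between 475 and 1202. The number of arrays limits the precision.

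Genes with at least 3 of 12 arrays well above background were fitted with limma 3.58.1 in R 4.3.3 (lmFit and eBayes, 4 group means, 8 residual degrees of freedom), and p-values were adjusted by Benjamini-Hochberg over all 19531 genes. They rest on the spread among the arrays of a group, each from its own mouse. Slide differences enter that spread in the FSAP-/- sham and WT BDL groups, which lay on several slides. Genes that only the ligated or only the sham livers made bright enough to be tested are named without a p-value. They stay in the counts, which leans those counts toward the surgery where they are bright. Neighbours of the Ly6 genes and both Ly6c1 probes were fitted per probe. Of 33063 probes with a RefSeq accession 26412 were matched to current symbols, and 3093 symbols changed. On 1 FSAP-/- sham array most gene names were missing and were taken by probe name. The Ly6 genes and all gene lists were chosen with earlier results of these data known. Genes were named by rule: the listed Ly6 genes, their chromosomal neighbours, at most 5 other Ly6 and uPAR genes and 3 genes of each other list by size of change among those called, fixed markers such as Ccr2, Cd34, Krt19, Isg15, Ifng and Alb, and the 3 genes most like each Ly6 gene. Some genes that the rule names are not reported here. The fit was tested on simulated data. Alternatives were median and quantile scaling, normexp background correction (offset 50), the authors' table, other filters and probe rules, the compared groups alone, slide or replicate number as a block, Y-linked signal as a covariate, each array left out, and, chosen after seeing the data, the 3 arrays with Y-linked signal left out.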

Additional observations from a re-analysis of the deposited data

How the results depend on the processing

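After ligation in FSAP-/- livers 7624 genes were called, 4190 with slide as a fixed block, 1134 within the 1 slide that held both groups, and 6217 to 7796 with 1 array left out. Of the Ly6 genes other than Ly6d, 0 were called there, but 1 with quantile normalization, normexp correction or the authors' table (Ly6e), 1 without the 3 arrays with Y-linked signal (Ly6c1), and 0 to 1 with 1 array left out. In WT livers 6415 genes were called, 3304 with slide as a fixed block and 4838 to 6871 with 1 array left out. Of the Ly6 genes 1 was called there, 2 with the compared groups alone, within 1 slide or without the arrays with Y-linked signal (Ly6c1 and Ly6a), 0 with slide as a fixed block, and 1 to 2 with 1 array left out. Between sham groups 3 genes were called, 1 with the compared groups alone and 2 to 3 with 1 array left out. Between ligated groups 42 were called, 65 with median scaling, 64 with quantile normalization, 135 with normexp correction, 6 with no filter on dim genes, 3 with the compared groups alone, 2 with slide as a fixed and 6 as a random block, 11 with the replicate block, 5 without the arrays with Y-linked signal, and 6 to 95 with 1 array left out. For the difference of the ligation changes 2 were called, 12 with normexp correction, 0 with no filter or the replicate block, 365 with Y-linked signal as a covariate, 264 without those arrays, and 0 to 22 with 1 array left out. No Ly6 gene was called in these last 3 comparisons with 1 array left out (0 to 0). The causes were not tested.

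Signs turned for values that had not passed the test or were not tested. Without the arrays with Y-linked signal the change in FSAP-/- livers was -0.66 for Ly6a and -0.24 for Ly6e, the difference between ligated groups was -0.43 for Ly6e, and the difference of the ligation changes was -0.60 for Ly6d and -0.35 for Ly6e. With slide as a fixed block Ly6e differed by 0.88 between sham groups, and Ly6i by 0.86 between ligated groups and by 0.35 in the difference of the ligation changes. The change in FSAP-/- livers was 0.053 for Ly6c1 as the mean of its probes, and for Ly6i -0.044 with median scaling, -0.025 with quantile normalization and -0.16 with normexp correction. In WT livers Ly6e was at -0.048 with median scaling. With 1 array left out, Ly6d ranged from -1.13 to 0.96 between ligated groups, and Ly6i from -0.13 to 0.42 between sham groups. In FSAP-/- livers Ly6a ranged from -0.064 to 2.26, Ly6c1 from -1.86 to 0.19 and Ly6i from -0.16 to 0.40 after ligation, and in WT livers Ly6e from -0.12 to 0.40. The fall of Ly6c1 in WT livers ranged from -4.11 to -3.53 (adjusted p 0.00297 to 0.0493). Same-numbered replicates were not paired, with correlations of -0.20 to 0.19 between their deviations. Median scaling moved the median of all genes to -0.36 in FSAP-/- and -0.19 in WT livers, and the share of calls that were higher to 28.7% and 33.1%, beside 41.5% and 46.1%; with normexp correction the shares were 34.8% and 40.2%. Ly6i lies near background, where precision is lowest.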
